A study of Bubalus bubalis with 12 samples.

Results

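The genes described here act in inflammasome signalling and in the lytic cell death that follows it. They were chosen by gene name and are 3 gasdermins (GSDMC, GSDMD and GSDME), the membrane rupture gene NINJ1, the caspase genes CASP1 and CASP4, the sensors NLRP1 and NLRP3 and the adaptor PYCARD. Of these 9 names, 7 matched a gene in the table of 34037 genes, and all 7 were among the 12760 genes with enough reads to be tested, which means at least 40 depth-scaled reads in at least 1 animal. NLRP3 passed only through control replicate 6, with 40.3 depth-scaled reads, and NLRP1 only through treated replicate 5, with 42.0. The table gives them with the gene identifiers 102397970 (GSDMC), 102393748 (GSDMD), 102389427 (GSDME), 102401904 (NINJ1), 102395839 (CASP1), 102402911 (NLRP1) and 102408947 (NLRP3). CASP4 and PYCARD were not analysed here. Ruminal wall was taken from 12 adult Italian Mediterranean dairy buffaloes (Bubalus bubalis). The 6 animals of the control group were fed a total mixed ration (TMR), and the 6 animals of the treated group were fed a TMR with 30% green feed, which was ryegrass. Each library was made from the total RNA of a piece of frozen rumen wall of 1 animal. The spread within a group is therefore that between animals, together with that between pieces and libraries, which cannot be told apart. Values are FPKM, fragments scaled by gene length and by all counted fragments of the animal. Since they are per length, levels were compared between genes. Such comparisons are limited, because the gene lengths behind the FPKM are not given and reads shared with near-identical copies may be lost or split.

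An inflammasome is a protein platform that assembles in the cytosol when a sensor of the NLR family detects microbial products or cell damage. The adaptor PYCARD then brings in caspase-1, which matures interleukin-1β and interleukin-18 and cleaves gasdermin D, whose freed part forms pores in the plasma membrane, and NINJ1 completes the rupture of the cell. Other gasdermins are opened by other proteases: gasdermin E by caspase-3 and gasdermin C by caspase-8. The lining of the rumen is a stratified squamous epithelium that faces a dense microbial community. RNA levels do not show whether any of these proteins was cleaved.

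The counted fragments ranged from 10531541 to 12948372 per animal, with the lowest number in control replicate 6. The tissue carried the markers of squamous epithelium at high levels, with a summed FPKM of 3930 to 7840 for 11 listed genes, although KRT4 and SBSN were below 2 FPKM in every animal. Smooth muscle markers summed to 28.9 to 51.2 in the control group and to 15.5 to 40.7 in the treated group. In whole tissue, fewer cells of a type and less RNA per cell cannot be told apart. The animals numbered 6 in both groups stood apart, with KRT5, the keratin of basal cells, at 451 and 498 FPKM against 1180 to 2370 in the other animals. Results without these animals were obtained after seeing the data.

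The members spanned a wide range of levels. CASP1 was the highest at a mean of 14.9 FPKM over all animals, above 68.3% of the genes tested, followed by NINJ1 at 5.93. The gasdermins were lower, with GSDMC at 2.29, GSDMD at 1.55 and GSDME at 0.668 FPKM. The sensors were near the bottom of the genes tested, with NLRP1 at 0.362 and NLRP3 at 0.223 FPKM, the latter above only 0.572% of the genes tested. The order of neighbouring levels was tested within animals with a two-sided exact sign-flip permutation test on log2 FPKM. Neighbours were set by the mean FPKM of these same animals, so the p-values are not independent support for the order. CASP1 was above NINJ1 in 12 of 12 animals (mean log2 difference 1.33 ± 0.68 SD, exact p = 0.000488, adjusted over the neighbouring pairs 0.00292). GSDMC and GSDMD were the only neighbours that did not pass this test, with GSDMC the higher in 7 animals (mean log2 difference 0.44 ± 1.07 SD, exact p = 0.193). For GSDME over NLRP1 (0.89 ± 0.90 SD, exact p = 0.00537) and NLRP1 over NLRP3 (0.93 ± 1.13 SD, exact p = 0.0195), which passed, the SD between animals was at least as large as the mean difference. The plot of FPKM by animal shows this order together with the spread of each gene.

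**Figure D1:**
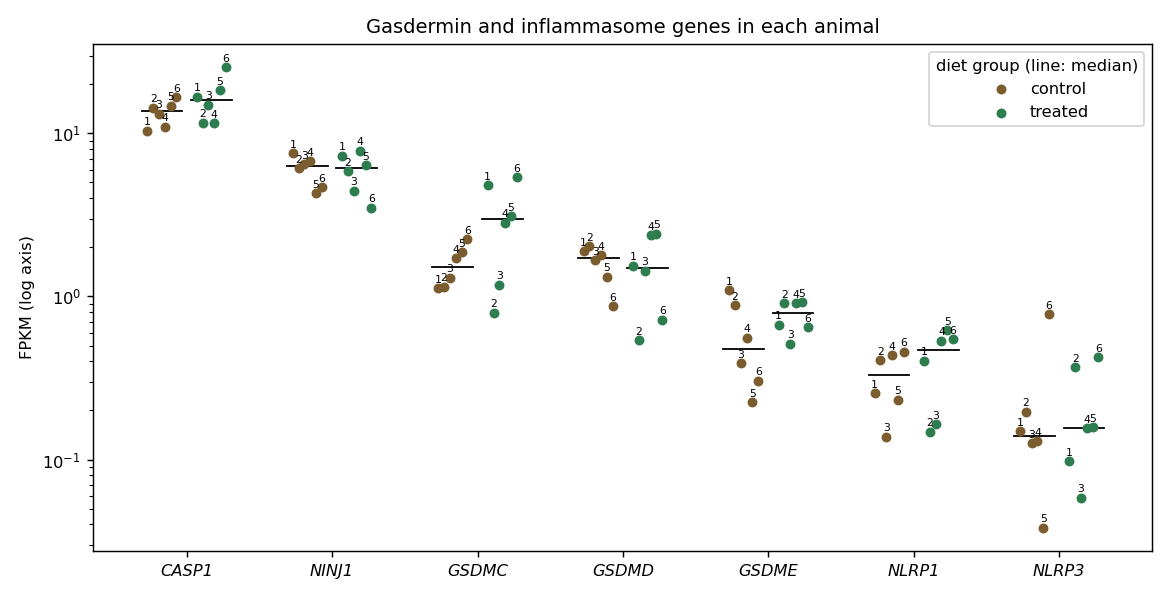
FPKM of the 7 genes in each animal on a log axis, with control animals in brown, treated animals in green, the replicate number above each point and the group median as a line. CASP1 lies at 10.4 to 25.5 FPKM in all animals, while GSDMC ranges from 0.794 to 5.37 in the treated group and from 1.12 to 2.25 in the control group.

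GSDMC had the largest estimated difference between the diets among the members, but it did not pass the test. Its FPKM in the control group were 1.12, 1.15, 1.30, 1.72, 1.86 and 2.25 in replicates 1 to 6. The corresponding values in the treated group were 4.80, 0.794, 1.18, 2.83, 3.11 and 5.37. Treated replicates 1, 4, 5 and 6 were above every control animal, treated replicate 3 lay within the control range and treated replicate 2 was below every control animal. The control mean was 1.57 ± 0.451 (SD, n = 6), against a treated mean of 3.01 ± 1.85 (SD, n = 6). The log2 fold change was 0.69 (SE 0.43, 95% interval −0.24 to 1.61), with a limma p of 0.133, an adjusted p of 0.9996 over all genes tested and an exact permutation p of 0.180. With 1 animal left out, the log2 fold change ranged from 0.46 without treated replicate 6, with a nominal limma p of 0.288, to 1.01 without treated replicate 2, with a nominal limma p of 0.0151, the only such fit below 0.05. GSDMC is in the list of changed genes that the study called on these same animals, so its direction here is not independent evidence. The study listed genes by an unadjusted edgeR p below 0.05 or by a NOISeq probability, which are other measures. It found no gene with edgeR after adjustment.

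The values of GSDMC rested on 30 to 52 reads in the control animals and on 21 to 150 reads in the treated animals. The counting intervals (95%, Poisson) of the highest control animal, 1.68 to 2.95 FPKM, and of the highest treated animal, 4.54 to 6.30 FPKM, did not overlap. Such intervals cover counting error only. The variance of GSDMC between animals was 3.32 times that expected from counting in the control group and 30.3 times in the treated group. Counting therefore accounted for a small part of the spread among treated animals.

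GSDMD, the target of caspase-1, overlapped between the diets. Its FPKM were 1.89, 2.04, 1.67, 1.79, 1.32 and 0.872 in control replicates 1 to 6 and 1.54, 0.538, 1.44, 2.37, 2.42 and 0.721 in treated replicates 1 to 6. The treated animals spanned the control range on both sides, with replicates 4 and 5 above and replicates 2 and 6 below all control animals. The means were 1.60 ± 0.430 (SD, n = 6) and 1.50 ± 0.792 (SD, n = 6). The diet difference was a log2 fold change of −0.24 (SE 0.37, 95% interval −1.04 to 0.57, limma p = 0.540, exact permutation p = 0.578). Without treated replicate 2 it was 0.02, so the sign of this small difference rested on 1 animal.

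GSDME, which caspase-3 opens, showed the opposite pattern of spread. The control animals had 1.09, 0.882, 0.388, 0.558, 0.224 and 0.304 FPKM and the treated animals 0.669, 0.911, 0.514, 0.909, 0.925 and 0.646. All 6 treated animals were above the control median of 0.473, but control replicate 1 was above all treated animals and control replicates 2 and 4 lay among them. GSDME had a log2 fold change of 0.58 (SE 0.38, 95% interval −0.24 to 1.40, limma p = 0.149, exact permutation p = 0.160). With 1 animal left out, the estimate ranged from 0.36 without control replicate 5, with a nominal limma p of 0.332, to 0.81 without control replicate 1, the highest animal, with a nominal limma p of 0.0443, the only such fit below 0.05. The control group ranged 4.88-fold from its lowest to its highest animal and the treated group 1.80-fold.

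The make-up of the gasdermin transcripts differed from animal to animal. GSDMA and GSDMB, the other gasdermins with values above 0 in every animal, were too low to be tested, with at most 0.802 and 0.431 FPKM. Summed over GSDMA to GSDME, gasdermin FPKM came to 3.50 to 5.18 in control animals (median 4.23) and to 2.93 to 8.06 in treated animals (median 6.63). GSDMC made up 21.7 to 57.7% of this sum in control animals (median 37.4%) and 27.1 to 75.5% in treated animals (median 44.8%). GSDMD took 22.4 to 47.6% in control and 10.1 to 39.5% in treated animals. GSDMD was the highest gasdermin in 4 control animals and 1 treated animal, GSDMC in 2 control and 4 treated animals, and GSDME in treated replicate 2. The groups overlapped in each of these shares, and the shares were not tested. The stacked bars of gasdermin FPKM show GSDMC as the largest segment of the tallest bars, those of treated replicates 1 and 6.

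**Figure D2:**
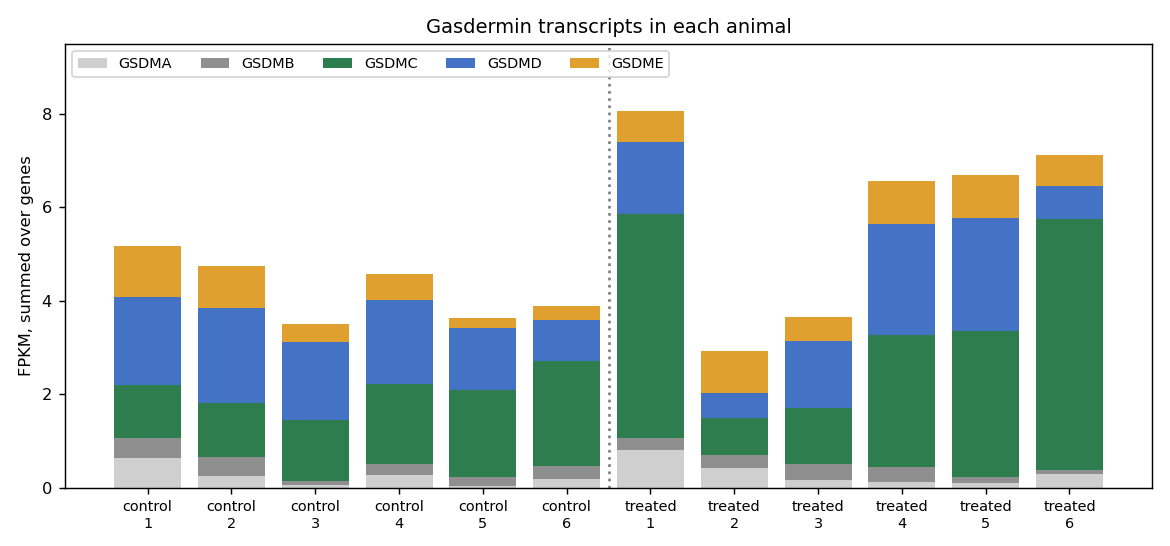
Stacked bars of the FPKM of GSDMA, GSDMB, GSDMC, GSDMD and GSDME in each control and treated animal, with the dotted line between the diet groups. The total is highest in treated replicate 1 at 8.06 and lowest in treated replicate 2 at 2.93, and the GSDMC share is highest in treated replicate 6 at 75.5%.

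NINJ1, which ruptures the plasma membrane after the pores have formed, had similar ranges under both diets. Control animals had 4.30 to 7.53 FPKM (median 6.29) and treated animals 3.49 to 7.84 (median 6.10). Treated replicate 4 was the highest and treated replicate 6 the lowest of all animals. The log2 fold change was −0.05 (SE 0.21, 95% interval −0.51 to 0.41, limma p = 0.821, exact permutation p = 0.818), an interval that includes a 0.704-fold and a 1.33-fold level. The estimate took the opposite sign, 0.02 to 0.09, when control replicate 1, treated replicate 3 or treated replicate 6 was left out.

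CASP1, the protease at the centre of the pathway, had the deepest coverage of the members, with 332 to 827 reads per animal. Its FPKM were 10.4, 14.4, 13.2, 11.0, 14.8 and 16.7 in control replicates 1 to 6 and 16.8, 11.6, 15.0, 11.5, 18.4 and 25.5 in treated replicates 1 to 6. Treated replicates 1, 5 and 6 were above all control animals, and no treated animal was below the control range. The control mean was 13.4 ± 2.39 (SD, n = 6), against a treated mean of 16.5 ± 5.23 (SD, n = 6). On the log2 scale the difference was 0.26 (SE 0.19, 95% interval −0.16 to 0.68, limma p = 0.201, exact permutation p = 0.238). Without treated replicate 6 it was 0.12. Over all animals the interval reached a 1.60-fold level at its upper end. The variance of CASP1 between animals was 12.8 times that expected from counting in the control and 52.4 times in the treated group.

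The sensor NLRP1 rested on 10 to 41 reads per animal. Control animals had 0.138 to 0.459 FPKM (median 0.331) and treated animals 0.148 to 0.619 (median 0.469). Treated replicates 4, 5 and 6 were above every control animal, whereas treated replicates 2 and 3 were near the bottom of the control range. The log2 fold change was 0.23 (SE 0.46, 95% interval −0.75 to 1.21, limma p = 0.623, exact permutation p = 0.621). It ranged from 0.02 without control replicate 3 to 0.47 without treated replicate 2.

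NLRP3, the sensor best known from macrophages, had the fewest reads of the members, with 2 to 35 reads per animal. Control replicate 5 and treated replicate 3 held 3 reads or fewer, the level treated here as the floor. Control animals had 0.0381 to 0.777 FPKM (median 0.139) and treated animals 0.0584 to 0.423 (median 0.156). Control replicate 6 stood alone at 0.777, with the next control animal at 0.196. The log2 fold change was 0.08 (SE 0.66, 95% interval −1.34 to 1.51, limma p = 0.901, exact permutation p = 0.907). The estimate was 0.53 without control replicate 6 and −0.28 without control replicate 5, so its sign rested on single animals. The variance of NLRP3 between animals was 15.3 times that expected from counting in the control and 5.53 times in the treated group.

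Of the 7 members, 0 had a nominal limma p below 0.05, against 162 of the 12760 genes tested (1.27%), and 0 of all genes had an adjusted p below 0.05. With voom on the reads, the exact permutation test and the exact rank-sum test, the number of members below a nominal 0.05 was also 0. The same count was 0 when limma was fitted to every gene above 0, where 2.45% of 22972 genes were below 0.05, and to genes with 0.1 FPKM or more in at least 6 animals, where 1.83% of 16450 genes were. The estimates of 5 members were above 0 and those of 2 below it, against 6537 above and 6223 below 0 over all genes tested. The median log2 fold change of the members was 0.23, against 0.0051 over all genes tested. This median is the estimate of NLRP1, which passed the filter only through treated replicate 5, so it does not show a shift of the members. In 0 of the 7 members did the groups not overlap, against 0.0549% of the genes tested. The plot of log2 fold changes shows that every interval includes 0.

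**Figure D3:**
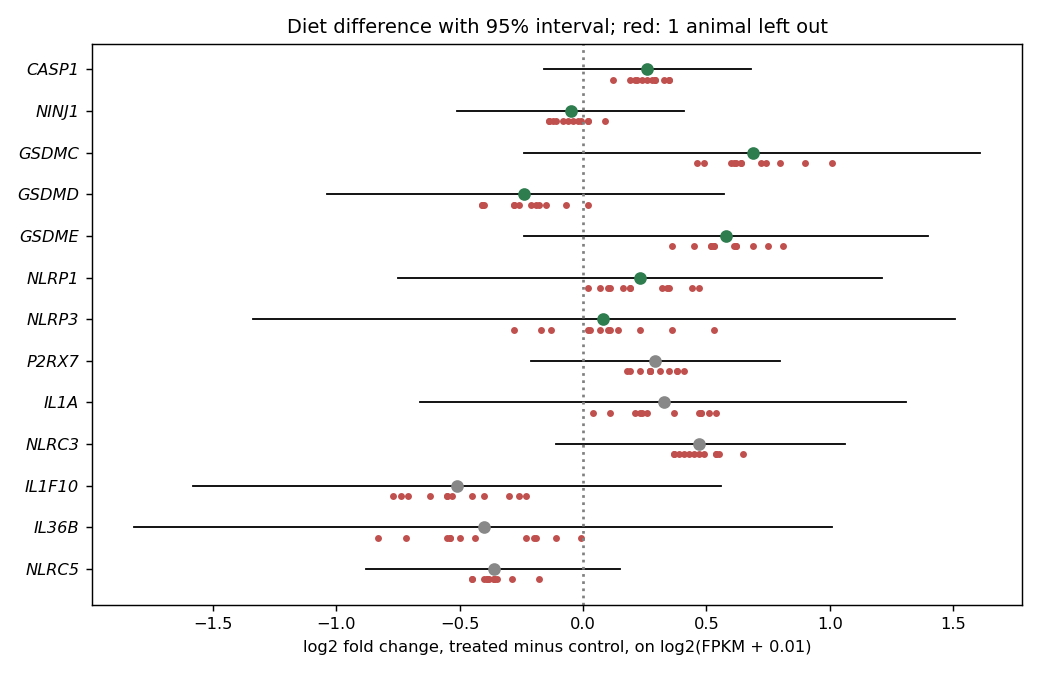
Log2 fold change (treated minus control, on log2(FPKM + 0.01)) with its 95% interval from limma for the 7 members in green and 6 other genes of the pathway in grey, and below each, in red, the estimates with 1 animal left out. All intervals cross 0, and the widest among the members is that of NLRP3, from −1.34 to 1.51.

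Members differed in how their spread divided between the diets. In FPKM, the coefficient of variation of GSDMC was 28.8% in the control and 61.3% in the treated group, and that of GSDMD was 27.0% and 52.7%. For GSDME the order was the other way round, 59.9% in the control and 23.0% in the treated group. The deviations of the animals from their group median on the log2 scale were compared with a two-sided exact permutation test, a choice made after seeing the data. The mean deviation of GSDME was 0.71 in the control and 0.29 in the treated group (exact p = 0.026, adjusted over all genes tested 1.0). The mean deviation of GSDMC was 0.35 and 0.82 (exact p = 0.16). Since 3.52% of all genes tested had a nominal p below 0.05 in this test, the nominal value of GSDME does not stand out. Pooled within groups, the SD of log2 GSDMC was 0.83, larger than that of 84.6% of the 2944 genes with a mean number of reads within 2-fold of its own.

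Pairs of members were compared across the 12 animals with permutation tests, and 0 of 21 pairs passed after Benjamini-Hochberg adjustment. GSDMC had its highest correlation with NLRP1 (Pearson r = 0.735, permutation p = 0.0080, adjusted 0.0997; Spearman rho = 0.692, permutation p = 0.0157, adjusted 0.124). Within the groups r was 0.370 in control and 0.883 in treated animals, and without the 2 animals farthest from the median of GSDMC it was 0.779. GSDMC and CASP1 correlated with r = 0.701 (permutation p = 0.0102, adjusted 0.0997; rho = 0.685, permutation p = 0.0177, adjusted 0.124), with r = 0.542 in control and 0.686 in treated animals. Without the 2 farthest animals this r was 0.448, so the estimate rested in part on those, treated replicates 1 and 6. Treated replicate 6 was the highest animal for both of these genes.

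The correlation of NINJ1 with CASP1 was negative but did not pass adjustment (r = −0.678, permutation p = 0.0142, adjusted 0.0997; rho = −0.580, permutation p = 0.0515, adjusted 0.271). The sign was the same within both groups, with r = −0.853 in control and −0.643 in treated animals. Without the 2 animals farthest from the median of NINJ1, r was −0.439, so the estimate rested in part on those. Over all animals, no relation was detected between GSDMC and GSDMD (r = 0.0551, permutation p = 0.866; rho = 0.042, permutation p = 0.905; adjusted 0.879 and 0.905), and r was 0.485 without the 2 animals farthest from the median of GSDMC (permutation p = 0.159). In the control group alone r was −0.868 (exact permutation p = 0.0139, adjusted 0.292), and in the treated group it was 0.337 (exact permutation p = 0.512, adjusted 0.884). The difference between the groups was not tested. In the scatter plots of GSDMC, the control animals fall along a line that descends against GSDMD and the treated animals do not.

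**Figure D4:**
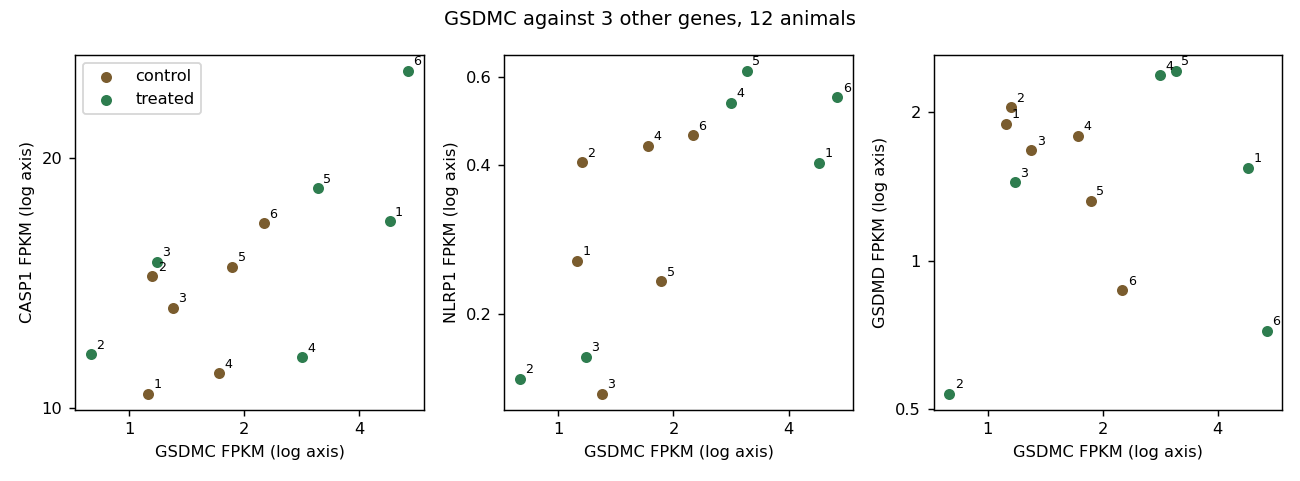
FPKM of GSDMC on the horizontal log axis against CASP1, NLRP1 and GSDMD on the vertical log axes, with 1 point per animal, control in brown and treated in green, numbered by replicate. Over all animals r on the log2 scale is 0.701 for CASP1, 0.735 for NLRP1 and 0.0551 for GSDMD.

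The animals numbered 6, which had the low KRT5 values, shared part of their profile among the members. In both groups they had the highest GSDMC, CASP1 and NLRP3 of their group, with CASP1 at 16.7 and 25.5 FPKM. GSDMD was at 0.872 and 0.721 FPKM in these animals, the lowest control and the second lowest treated value. Without both of them, the log2 fold change was 0.57 for GSDMC, 0.19 for CASP1 and −0.23 for GSDMD, and 0 of the members had a nominal limma p below 0.05. The part of tissue composition in these values was not tested.

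Marker scores of 7 cell types were set against the members over the 12 animals, and 0 of 49 pairs passed after adjustment (smallest adjusted p 0.761, permutation test). The nearest was NLRP3 with the score of macrophages and monocytes (r = 0.605, permutation p = 0.0367; rho = 0.427, permutation p = 0.171), which was 0.678 without the 2 farthest animals. GSDMD had r = 0.538 with the smooth muscle score (permutation p = 0.0721; rho = 0.517, permutation p = 0.0895). GSDMC had r = 0.0773 with the squamous epithelium score (permutation p = 0.813; rho = −0.112, permutation p = 0.731) and r = 0.484 with that of macrophages and monocytes (permutation p = 0.109; rho = 0.517, permutation p = 0.087). The summed macrophage and monocyte markers ranged from 31.0 to 55.2 FPKM in the control and from 28.6 to 54.2 in the treated group, with 0 of 7 tested markers at a nominal p below 0.05. All 8 smooth muscle markers tested had estimates below 0, down to −1.04 for DES and nearest to 0 for SMTN at −0.03. Only DES had a nominal p below 0.05 (nominal limma p = 0.0271, exact permutation p = 0.0519). ACTG2 and CNN1, with too few reads to be tested, were also lower in the treated group (exact permutation p = 0.0238 each). When a joint muscle and fibroblast score entered the limma fit, the log2 fold change was 0.80 for GSDMC and −0.06 for GSDMD, and neither had a nominal p below 0.05.

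The genes with the pattern most like GSDMC over the 12 animals, by Pearson r on log2 FPKM among all genes tested, were SLC16A9 (r = 0.920), LOC112584607 (r = 0.874) and LOC102414399 (r = 0.860). SLC16A9, a member of the monocarboxylate transporter family, ranged from 5.56 to 7.97 FPKM in the control and from 4.91 to 11.7 in the treated group. Those most like GSDMD were CXXC5 (r = 0.896), the mitochondrial RNA-binding hydratase gene AUH (r = 0.882) and the protease gene PRSS12 (r = 0.879). These are the highest values among 12760 genes and are given as a description.

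The other genes of the pathway came from a list of 97 names, of which 78 matched a gene and 56 were tested. Of these, 0 had a nominal p below 0.05 in either direction, against the 1.27% of all genes. Estimates were above 0 in 35 and below 0 in 21, against 6537 and 6223 over all genes tested. Their log2 fold changes ranged from −0.51 to 0.47 with a median of 0.04. By listed role, 6 of 7 sensors, 4 of 6 caspases and 9 of 14 cytokine, receptor and antagonist genes were on the higher side. So were 10 of 18 regulators, 5 of 8 membrane repair genes and 1 of 3 genes of parallel lytic death. The genes listed as sensors include the regulators NLRC3 and NLRC5, and the estimates of NLRX1 (0.02) and CIITA (0.05) were near 0. The medians of the role groups lay between −0.05 and 0.09. Among the regulators, the name POP1 matched the symbol of a ribonuclease P subunit, which does not belong to this pathway. It is counted on the higher side above, with an estimate of 0.01.

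The highest estimate in the list was that of NLRC3, a negative regulator of innate sensing, with 0.678 to 1.25 FPKM in the control and 0.715 to 1.92 in the treated group. In 4 treated animals it was above every control animal (log2 fold change 0.47, SE 0.27, limma p = 0.106, exact permutation p = 0.102). Next were IL1A, an alarmin of the interleukin-1 family, at 0.33 (SE 0.46), and P2RX7, the ATP receptor upstream of NLRP3, at 0.29 (SE 0.23). The lowest were IL1F10 at −0.51 (SE 0.50), IL36B at −0.40 (SE 0.66) and NLRC5, the regulator of MHC class I genes, at −0.36 (SE 0.24). NLRC5 was below every control animal in 4 treated animals, with 1.20 to 1.76 FPKM in the control and 0.565 to 1.45 in the treated group (limma p = 0.153, exact permutation p = 0.0952). With 1 animal left out, IL1A ranged from 0.04 (without treated replicate 6) to 0.54, P2RX7 from 0.18 to 0.41, IL1F10 from −0.77 to −0.23 (without control replicate 5), IL36B from −0.83 to −0.01 (without treated replicate 5) and NLRC5 from −0.45 to −0.18. NLRC3 ranged from 0.37 to 0.65, with a nominal limma p of 0.0205 without treated replicate 3.

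Set beside the members, the interleukin-1 genes of caspase-1 signalling had a steep order of levels within animals. The ranges of IL18 and IL18BP overlapped. IL1B, a cytokine that caspase-1 matures, ranged from 0.253 to 2.71 FPKM in the control and from 0.306 to 2.40 in the treated group. CASP1 was above IL1B in 12 of 12 animals, by 4.06 to 60.3-fold with a median of 8.46. The interleukin-1 receptor antagonist gene IL1RN was also above IL1B in 12 of 12 animals, by a median of 7.52-fold. The decoy receptor gene IL1R2, at 79.5 to 171 FPKM over all animals, was above the signalling receptor gene IL1R1 in 12 of 12 animals, by 4.37 to 16.1-fold. IL18, which caspase-1 also matures, ranged from 0.825 to 3.21 FPKM in the control and from 1.22 to 3.03 in the treated group. Its antagonist IL18BP ranged from 1.72 to 3.68 and from 1.92 to 3.17, and was above IL18 in most animals but not in all. IL36G and its antagonist IL36RN were among the highest genes of the pathway, with IL36RN the higher in 9 animals. CASP8, which opens gasdermin C, was above GSDMC in 12 of 12 animals by a median of 6.91-fold.

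**Figure D5:**
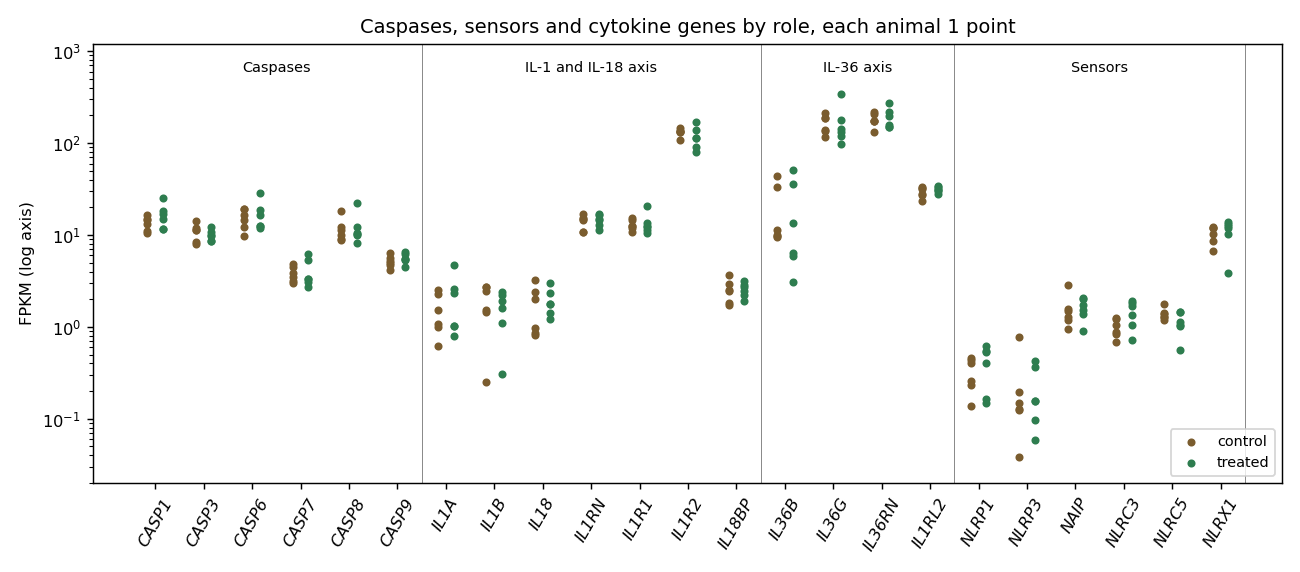
FPKM on a log axis of caspases, genes of the interleukin-1 and interleukin-18 axis, genes of the interleukin-36 axis and genes listed as sensors. Each point is 1 animal, with control in brown and treated in green. The diets overlap for every gene shown, NLRP1 and NLRP3 have the lowest medians, and IL1R2, IL36G and IL36RN lie above the other genes, with IL1R2 at 79.5 to 171.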

How the data were processed

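Ruminal wall RNA of 12 animals, 6 per diet, was sequenced as stranded total RNA. The authors trimmed the reads with Trimmomatic 0.39, aligned them with STAR 2.5.2b to UOA_WB_1, counted them by strand with featureCounts 2.0.0 and deposited FPKM. The tool and gene lengths behind the FPKM are not given in the sources used here. Of 16 columns of values, 12 matched the sample labels and 4 were not used. Within a gene the FPKM were whole multiples of the value of 1 read in 22971 of 22972 genes (relative tolerance 1e-06), which gave the reads behind each value. Reads shared with near-identical copies may be lost or split.

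Genes with at least 40 depth-scaled reads in 1 animal or more (12760) entered limma 3.58.1 in R 4.3.3 (trend) on log2(FPKM + 0.01), and p-values were adjusted after Benjamini and Hochberg over all 12760. Adding 0.01 understates changes of low genes. Exact permutation tests used all 924 assignments of the animals, for which the smallest p is 0.00216, and correlations used 100000 resamples. All tests were two-sided. A marker score was the mean z-score over the tested markers of a list with at least 3. The script was tested on simulated data. Alternatives were pseudocounts, filters, scalings, robust fitting, voom, exact tests, marker covariates, a replicate block and each animal left out. The members and lists were chosen with earlier results of these data known. Named pathway genes are the 3 with the highest and the 3 with the lowest log2 fold change, and genes named for likeness are the 3 with the highest r. Other genes were named after their values were seen. Python 3.11.15 with numpy 2.4.6, pandas 2.3.3 and matplotlib 3.10.9 was used.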

Additional observations from a re-analysis of the deposited data

Results flagged for a closer look

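In the control group, 1 animal lay far from the others for 2 genes. NLRP3 was at 0.777 FPKM in control replicate 6, with the next control animal at 0.196, a gap of 0.786 of the range of the group. NLRC5 was at 1.76 FPKM in the same animal, with the next at 1.41, a gap of 0.632 of the range. Both gaps exceed the 95% critical value of Dixon's test for 6 animals. Among the 26 groups checked, chance is expected to flag about 1 in 20. Control replicate 6 also had the fewest counted fragments, 10531541, and a KRT5 of 451 FPKM.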

How the results depend on the processing

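Across 27 alternatives per gene, GSDMC, GSDME, CASP1 and NLRP1 kept a higher estimate in the treated group. The sign turned for GSDMD without treated replicate 2 (0.02), for NINJ1 without control replicate 1 (0.02), treated replicate 3 (0.02), treated replicate 6 (0.09) or both animals numbered 6 (0.03), and for NLRP3 with a pseudocount of 1 (−0.02), as the log2 ratio of the mean FPKM (−0.17) and without control replicate 5 (−0.28), treated replicate 2 (−0.13) or treated replicate 6 (−0.17). The cause was not tested. With 1 animal left out, the log2 fold change ranged from 0.46 to 1.01 for GSDMC, −0.41 to 0.02 for GSDMD, 0.36 to 0.81 for GSDME, −0.14 to 0.09 for NINJ1, 0.12 to 0.35 for CASP1, 0.02 to 0.47 for NLRP1 and −0.28 to 0.53 for NLRP3. The number of members with a nominal p below 0.05 was 0, and 0 to 1 with 1 animal left out. Over all genes, the 162 calls became 301 when 0.1 FPKM or more was required in at least 6 animals, 562 among every gene above 0, 326 with the replicate block, 323 with the smooth muscle and fibroblast score, 317 without both animals numbered 6, and 144 to 331 with 1 animal left out, the highest without treated replicate 6. The adjusted calls were 0 in all of these. Pathway calls went from 0 to 1 under both wider filters (ZBP1) and without both animals numbered 6 (TXNIP, −0.50), and were 0 to 1 with 1 animal left out (TXNIP without control replicate 6, NLRC3 without treated replicate 3 and IL1R2 without treated replicate 6). The labels do not say that the replicate numbers pair the animals. These numbers come from the sample descriptions, and animals with the same replicate number carry different numbers in the sample titles. Deviations of same-numbered animals correlated by −0.0128 to 0.411, above 0.1 in 4 of 6 pairs. The mean of these correlations was 0.211, and 7 of 12 animals were most like their own number. For animals of other numbers the mean was −0.0391. That value is no separate result, since the deviations within each group sum to 0. Whether same-numbered animals shared a factor was not tested. The block changed no call among members or pathway genes, with a limma p of 0.0598 for GSDMC and 0.0908 for CASP1. NLRP3 and NLRP1 had the fewest reads among the members, down to 2 and 10 in an animal.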

Other observations

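ZBP1, a sensor of Z-form nucleic acids that acts upstream of both inflammasome and necroptosis, had too few reads to be tested and was chosen after its values were seen. It held 1 to 6 reads in the control animals and 5 to 13 in the treated animals. Its FPKM were 0.157, 0.0551, 0.254, 0.104, 0.321 and 0.187 in control replicates 1 to 6 and 0.494, 0.327, 0.437, 0.272, 0.610 and 0.671 in treated replicates 1 to 6. In 5 of 6 treated animals it was above every control animal, and the exact permutation p was 0.00433, before any adjustment. When every gene above 0 was fitted with limma, the log2 fold change was 1.46 (SE 0.48, limma adjusted p = 1.0), and it was the only 1 of 73 pathway genes with a nominal p below 0.05, against 2.45% of all genes in that fit. Of its 6 control values, 4 rested on 3 reads or fewer.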
